A study of Homo sapiens with 6 samples.

Results

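The genes described here encode the collagens, the laminins and fibronectin, the large structural proteins of the extracellular matrix. Members were the protein coding rows of the deposited gene table named FN1, those named COL with a collagen type and chain number, and those named LAMA, LAMB or LAMC with a number. They were 57 of 58735 genes: 44 collagen genes, 12 laminin genes and FN1. Of these, 24 passed the filter on low counts and were tested, 17 of them with a mean count of 50 or more per library.

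The cells were T84, an established line from a human colorectal cancer that grows as an epithelial sheet. The sample titles name a control hairpin for 3 libraries (shControl, genotype WT) and a hairpin against ACSL4 for 3 libraries (shACSL4, genotype given as a knockdown). The series text calls the same cells a knockout, while the titles and genotypes do not. ACSL4 encodes an enzyme that couples long-chain polyunsaturated fatty acids to coenzyme A. All libraries came from cells in DMEM/F12 medium with 10% serum, and neither the number nor the sequence of the hairpins is stated. Nothing in the labels says that libraries of 1 group came from separate cultures, so p-values measure the spread between these libraries, which may be technical.

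Total counts ran from 14740383 to 17620630 per library. ACSL4 itself fell in shACSL4 to 13.9% of its shControl level (log2 fold change -2.85, SE 0.10, edgeR adjusted p = 3.6e-12). All 10 markers of colonic epithelium were well counted, with a summed level of 6256 to 7472 CPM, the counts of a gene relative to the scaled library size, in shControl and 7550 to 8919 CPM in shACSL4. The 12 fibroblast and smooth muscle markers summed to 12.1 to 13.3 and 14.6 to 19.8 CPM, the 5 endothelial markers to 0.74 to 1.25 and 0.705 to 1.08 CPM, and the 6 leukocyte markers to 10.6 to 13.2 and 4.39 to 6.07 CPM. The stromal proteoglycan DCN had 1, 1 and 2 counts in shControl and 0 in every shACSL4 library, PECAM1 had at most 16 counts and PTPRC at most 11. Of the epithelial markers 6 were called higher and 1, EPCAM, lower (-0.42), KRT20 (0.88) and VIL1 (0.47) rose, and CDH1 was not called (0.02). The part of these markers in the results was not tested.

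Epithelial cells rest on a basement membrane. Laminins are trimers of 1 alpha, 1 beta and 1 gamma chain, and many of them polymerise into a network beneath the cell. Type IV collagen forms the second network of the basement membrane. LAMA3 and LAMB3 are chains of the laminin that, with the transmembrane collagen XVII, anchors epithelial cells at hemidesmosomes, and LAMA5 joins LAMB1 or LAMB2 and LAMC1 in the laminins of most mature epithelia. Fibrillar collagens and fibronectin are mainly made by fibroblasts in tissue, although carcinoma cells can make fibronectin, which cells bind through integrin alpha 5 beta 1. Each collagen is a trimer of chains, some of 1 kind and some of 2 or 3 kinds, so a single chain that is measured does not show that the trimer is made.

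Stretches of sequence upstream of 4 annotated starts are shown, because FN1 fell more than 4-fold, LAMA5 and LAMC1 are laminin chains that fell, and LAMB2 is the most counted laminin chain that rose. They are from RefSeq (GRCh38.p14), where 42 of the 57 members had an entry, and are written 5′ to 3′ on the gene's own strand. Each runs from 250 bases before the start towards it and ends before any exon that GENCODE 29 gives the gene. LAMA3, which also fell, had been chosen too. Too little of its stretch was left after this trimming, so it was neither searched nor shown. Capitals mark matches on either strand to the GC box (GGGCGG), the cyclic AMP response element (TGACGTCA), the AP-1 element (TGANTCA) or the core of the hypoxia response element (ACGTG).
FN1: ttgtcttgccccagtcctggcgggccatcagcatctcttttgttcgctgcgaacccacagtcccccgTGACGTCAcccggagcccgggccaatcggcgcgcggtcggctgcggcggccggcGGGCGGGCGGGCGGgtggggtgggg
LAMA5: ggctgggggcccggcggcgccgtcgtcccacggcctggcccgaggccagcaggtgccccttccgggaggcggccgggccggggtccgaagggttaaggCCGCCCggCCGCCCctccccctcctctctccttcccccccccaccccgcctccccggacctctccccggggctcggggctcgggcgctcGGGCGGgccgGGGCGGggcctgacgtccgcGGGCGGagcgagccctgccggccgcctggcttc
LAMC1: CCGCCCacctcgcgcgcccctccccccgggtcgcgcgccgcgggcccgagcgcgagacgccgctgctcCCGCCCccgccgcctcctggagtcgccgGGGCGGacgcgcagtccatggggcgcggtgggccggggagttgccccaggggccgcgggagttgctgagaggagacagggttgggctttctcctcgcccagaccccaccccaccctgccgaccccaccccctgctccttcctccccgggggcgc
LAMB2: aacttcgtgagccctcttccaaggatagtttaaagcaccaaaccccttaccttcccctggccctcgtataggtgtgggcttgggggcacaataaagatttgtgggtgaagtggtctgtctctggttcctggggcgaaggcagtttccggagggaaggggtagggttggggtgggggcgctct
The FN1 stretch, chr2:215436173-215436318 on the minus strand, holds 1 cyclic AMP response element and 3 overlapping GC boxes. In the same window of 34788 promoters, 0.423% hold that response element and 25.04% hold a GC box. LAMA5 (chr20:62367313-62367562, minus strand) has 5 GC boxes and LAMC1 (chr1:183023170-183023419, plus strand) has 3, where 42.6% of promoters have at least 1. The LAMB2 stretch, chr3:49133119-49133300 on the minus strand, has no match to any of the motifs, and 31.6% of promoters have a GC box in that window. No stretch shown has the letters of the AP-1 element or of the hypoxia response core. The stretch of LAMB1, which was not called, was also searched and is not shown. It has 2 GC boxes and no match to the other motifs, and 26.9% of promoters have a GC box in that window. A match is a description of these letters and does not show that a factor binds.

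Of the 24 tested members, 16 changed between the groups: 6 rose and 10 fell in shACSL4. Calls are from the quasi-likelihood test of edgeR, at a Benjamini-Hochberg adjusted p under 0.05 over all genes tested. The background was high: 47.2% of all 15694 genes tested were called, 24% higher and 23.1% lower, and 51.7% of the protein coding ones, 25.9% higher and 25.8% lower. Above a mean of 50 counts, 53.7% of protein coding genes were called, 26.2% higher and 27.5% lower, against 14 of the 17 members of that depth, 5 higher and 9 lower. With library size alone as the scaling, 65.6% of all calls were higher, against 50.9% here. The median log2 fold change (shACSL4 over shControl) was -0.39 over the 24 members and 0.01 over all genes tested. The members' median was -0.20 without shControl replicate 3, -0.21 without shACSL4 replicate 1 and -0.08 on log2(FPKM + 1). With no filter beyond 1 count, which adds members of few counts, it was 0.025 over 56 members and 0.015 over all genes. The groups did not overlap for 18 of the 24 members, beside 55.1% of all genes tested. Of the 14 collagen chains tested, 3 rose and 4 fell.

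**Figure D1:**
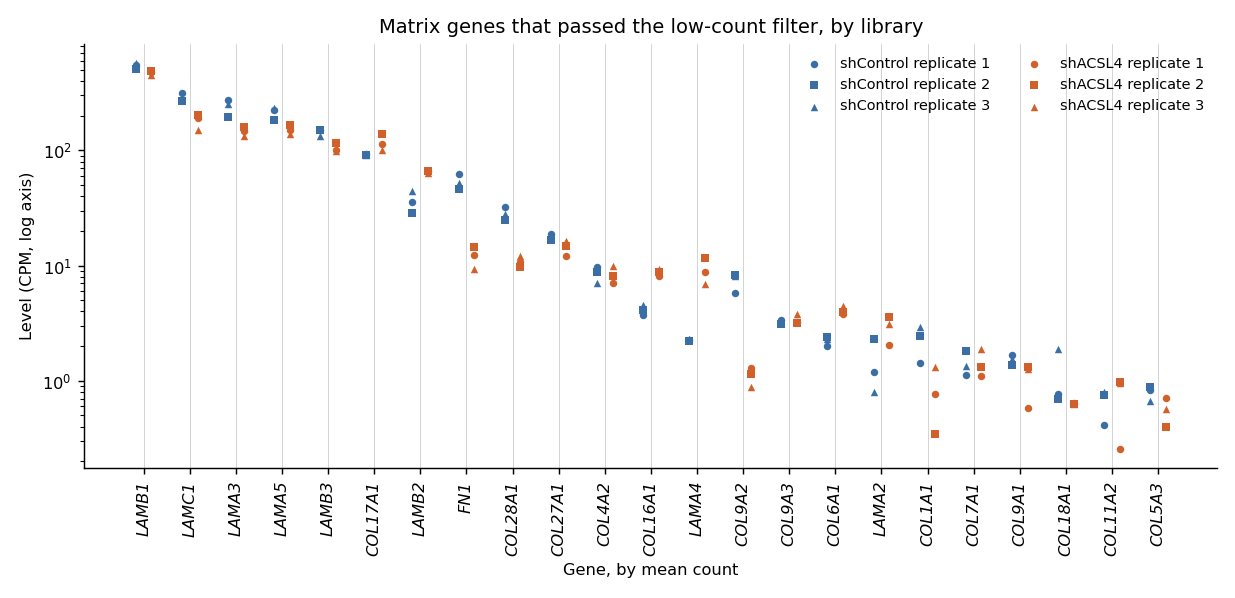
Level of tested members (CPM, log axis; 1 of the 24 is not shown) in each library, ordered by mean count. Points are libraries, with blue for shControl and orange for shACSL4 and a marker shape for the replicate number. FN1, COL28A1 and COL9A2 lie lower in all 3 shACSL4 libraries, and LAMB2, COL16A1 and LAMA4 lie higher in all 3.

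Fibronectin, the dimeric glycoprotein that links integrins to collagen, fell more than 4-fold. FN1 (ENSG00000115414, GRCh38 chromosome 2, 215360440 to 215436172, minus strand) was at 62.0, 46.1 and 52.5 CPM in the shControl libraries, given here and throughout in the order of replicates 1, 2 and 3. In the shACSL4 libraries it was at 12.4, 14.4 and 9.36 CPM. Every shACSL4 library lay below every shControl library, with 193, 252 and 148 counts behind these values. Means of 53.5 ± 8.01 and 12.03 ± 2.52 CPM (SD, n = 3) left 22.6% of the shControl level (log2 fold change -2.15, SE 0.14, edgeR adjusted p = 4.1e-09). ITGA5, the alpha chain of the main fibronectin receptor, went from 17.1 ± 2.23 to 2.02 ± 0.6 CPM (SD, n = 3; -3.07, SE 0.20). Its partner ITGB1, which also joins most other matrix-binding alpha chains, was at 461 ± 18.8 and 423 ± 6.5 CPM (-0.13, edgeR adjusted p = 0.24).

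Laminin chains were the most abundant members. Per length, in deposited FPKM, LAMB1 (66.3 ± 3.81) stood highest in shControl. LAMC1 (34.2 ± 3.17) and LAMB3 (30.5 ± 2.24) were lower and within their spread of each other. Lower again were LAMA3 (16.4 ± 2.77), LAMA5 (14.9 ± 1.73) and the highest collagen, COL17A1 (12.9 ± 0.201), and then LAMB2 (5.25 ± 1.13), COL28A1 (4.29 ± 0.562) and FN1 (3.07 ± 0.462; SD, n = 3 for each). No other collagen reached 2 FPKM in shControl. These values use the length of all merged exons, 6619 bases for COL28A1 and 17315 for FN1. Their longest transcripts have 4277 and 9171 bases. The order of close members, and which collagens reach 2, therefore depend on the length used. The summed FPKM of the alpha chains was 31.6 ± 4.32 in shControl and 21.4 ± 2.12 in shACSL4, and that of the beta chains 102 ± 3.73 and 88.6 ± 4.37 (SD, n = 3). The groups did not overlap for either sum.

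Both LAMA3 and LAMB3, chains of the hemidesmosome laminin, fell. LAMA3, an alpha chain, was at 276, 196 and 255 CPM in shControl and at 148, 159 and 133 CPM in shACSL4 (-0.72, SE 0.11, edgeR adjusted p = 6.8e-05). LAMB3, a beta chain, was at 150, 149 and 133 CPM in shControl and at 101.1, 115 and 99.1 CPM in shACSL4 (-0.45, SE 0.09, 0.00058). For both chains the lowest shControl library stood above the highest shACSL4 library. Of the receptors of the hemidesmosome laminin, ITGA6 (-0.40) and ITGA3 (-0.29) fell, ITGA3 with overlapping groups, while ITGB4, the partner of ITGA6 at hemidesmosomes, was at 409 ± 32.4 and 436 ± 74.2 CPM (SD, n = 3; 0.09, edgeR adjusted p = 0.53).

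Of the chains of the laminins with LAMA5, LAMA5 and LAMC1 were called lower and LAMB1 was not called. LAMB2, the other beta chain of these laminins, was called higher (0.84) and is described below. LAMA5 was at 223, 185 and 234 CPM in shControl and at 151, 167 and 139 CPM in shACSL4 (-0.49, SE 0.10, edgeR adjusted p = 0.00079). LAMC1, the gamma chain of most laminins, was at 318, 266 and 283 CPM in shControl and at 190, 203 and 151 CPM in shACSL4 (-0.67, SE 0.11, 8.6e-05). Both were lower in every shACSL4 library. LAMB1, the most counted member, was at 555, 505 and 571 CPM in shControl and at 477, 489 and 451 CPM in shACSL4, also without overlap. Its change of -0.20 (95% interval of the fit -0.39 to -0.01) was not called (edgeR adjusted p = 0.073). Whether the LAMB1 change differed from those of LAMA5 and LAMC1 was not tested. The authors' deposited table gives LAMB1 an adjusted p of 0.022, DESeq2 gave 0.028, and without shControl replicate 2 edgeR gave 0.017. On the opposite strand the annotation places exons of DLD over 0.86% and of the antisense gene AC005046.1 over 2.71% of LAMB1, and exons of ADRM1 over 1.71% of LAMA5. Whether counting used strand is not stated, so reads there cannot be told apart.

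LAMB2, a beta chain of laminins with LAMA5 and of laminins in muscle, kidney and nerve basement membranes, rose. It was at 35.9, 28.5 and 44.6 CPM in shControl and at 65.8, 66.1 and 63.6 CPM in shACSL4. Every shACSL4 library was higher, and the spread was narrower in shACSL4 (36.3 ± 8.05 against 65.1 ± 1.37 CPM, SD, n = 3). The log2 fold change was 0.84 (SE 0.12, edgeR adjusted p = 2.8e-05).

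LAMA4, an alpha chain known from blood vessel and muscle basement membranes, rose 4.08-fold. It was at 2.26, 2.20 and 2.29 CPM in shControl, from 34 to 38 counts, and at 8.85, 11.7 and 6.89 CPM in shACSL4, from 109 to 206 counts (2.03, SE 0.22, edgeR adjusted p = 1.6e-06). LAMA2, the alpha chain of muscle laminin, was at 1.19, 2.32 and 0.807 CPM in shControl and at 2.05, 3.59 and 3.10 CPM in shACSL4. Its change of 1.01 (SE 0.36, edgeR adjusted p = 0.028) was called although the groups overlapped. It was 1.53 without shControl replicate 2, and leaving out shControl replicate 1 or 3 (adjusted p = 0.0866 and 0.121) or shACSL4 replicate 2 or 3 (0.126 and 0.0715) ended the call. The summed fibroblast and smooth muscle markers were also higher in shACSL4 (12.1 to 13.3 against 14.6 to 19.8 CPM), with DCN at 0 counts there. Only 4 of these 12 markers passed the filter and were tested (median log2 fold change 0.56), and TAGLN (0.52) was the 1 called. The part of the markers in the LAMA4 and LAMA2 values was not tested. A change in the number of cells of a type and a change in RNA per cell cannot be told apart in these bulk libraries.

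As shares of the alpha chain FPKM, LAMA3 was 54.1%, 50.01% and 51.0% in shControl and 46.6%, 45.4% and 46.0% in shACSL4. LAMA5 held 47.2 ± 1.92% and 49.1 ± 0.299%. LAMA4 went from 0.619 ± 0.0813% to 3.61 ± 0.613% and LAMA2 from 0.467 ± 0.328% to 1.30 ± 0.331% of the alpha chain sum (SD, n = 3; groups without overlap), so that LAMA3 and LAMA5 still made up most of it. Among beta chains the LAMB2 share was 4.96%, 4.24% and 6.19% in shControl and 10.7%, 10.2% and 10.8% in shACSL4. LAMB3 held 29.9 ± 2.75% and 24.9 ± 1.03%, and the LAMB1 share overlapped between the groups (64.9 ± 1.76% and 64.5 ± 0.787%; SD, n = 3). These shares are descriptions with no test. FPKM uses the length of all merged exons of a gene, 14678 bases for LAMA3 where its longest transcript has 10661. Per kilobase of the longest transcript, the LAMB2 share was 4.75 ± 0.888% and 9.75 ± 0.269% and the LAMA4 share 0.83 ± 0.111% and 4.81 ± 0.809%.

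**Figure D2:**
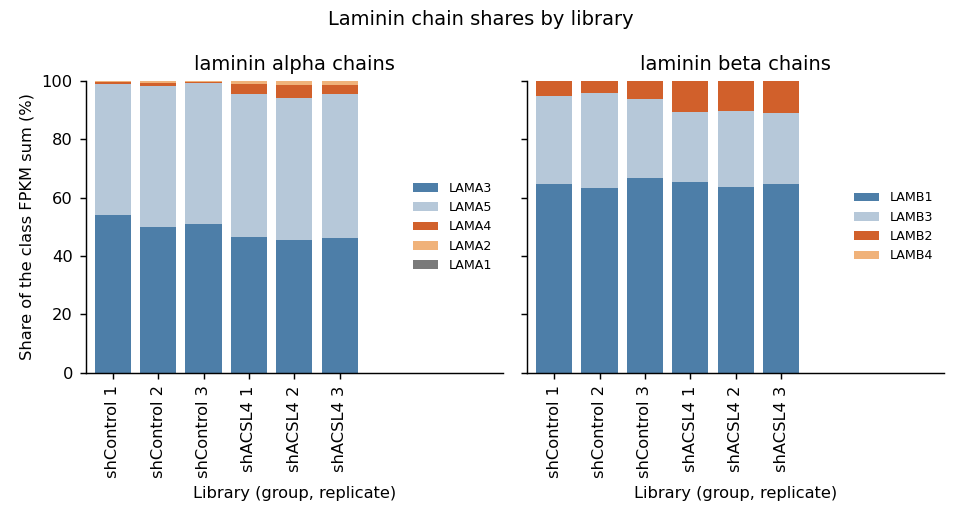
Share of each laminin chain in the summed FPKM of its class (percent, bars stacked from 0 to 100) in each library, with alpha and beta chains in separate panels. The LAMB2 share is 4.24% to 6.19% in the 3 shControl libraries and 10.2% to 10.8% in the 3 shACSL4 libraries.

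Of the other laminin chains, LAMC3 had 2, 0 and 0 counts in shControl and 4, 13 and 1 in shACSL4, LAMB4 had 1 to 8 counts in any library, and LAMA1 had 1 count in all 6 libraries together. In these libraries 3 counts equal 0.171 to 0.202 CPM. These chains were under the filter.

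Collagen XVII, the hemidesmosome collagen, was the most counted collagen and rose slightly. COL17A1 was at 93.2, 91.3 and 91.4 CPM in shControl and at 114, 137 and 100.6 CPM in shACSL4. Its shControl libraries lay close together, and all shACSL4 libraries lay above them (0.35, SE 0.10, edgeR adjusted p = 0.0089). Without shACSL4 replicate 2, the highest library, the change was 0.23 and the call was lost (adjusted p = 0.0881). COL17A1 thus rose while LAMA3 and LAMB3 fell in the same libraries.

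Type IV collagen, the network collagen of every basement membrane, was represented by 1 chain. COL4A2 was at 9.82, 8.72 and 7.06 CPM in shControl and at 7.12, 8.15 and 9.99 CPM in shACSL4, from 105 to 165 counts, and the groups overlapped (-0.02, 95% interval of the fit -0.39 to 0.34, edgeR adjusted p = 0.93). COL4A1, which forms the common trimer with COL4A2 and lies head to head with it on chromosome 13, had 0 counts in 5 libraries and 2 in shACSL4 replicate 1. In these 5 libraries a count of 0 allows up to 0.171 to 0.202 CPM, counting error only. COL4A3 had 0 to 14 counts, COL4A4 had 1 to 14, and COL4A5 and COL4A6 had at most 6 and 3. COL10A1, the network collagen of growth plate cartilage, had 6 to 8 counts in shControl and 9 to 23 in shACSL4 and was under the filter. COL7A1, which forms the anchoring fibrils below hemidesmosomes, was at 1.43 ± 0.353 and 1.43 ± 0.417 CPM (SD, n = 3; 0.00, 95% interval of the fit -0.75 to 0.75).

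Collagen IX, a fibril-associated collagen of cartilage built from COL9A1, COL9A2 and COL9A3, gave the largest fall of any member in 1 of its chains. COL9A2 was at 5.77, 8.29 and 8.07 CPM in shControl, from 97 to 132 counts, and at 1.28, 1.14 and 0.886 CPM in shACSL4, from 14 to 20 counts. The groups were far apart (-2.73, SE 0.25, edgeR adjusted p = 2.2e-07), and 15.1% remained. COL9A3 was at 3.39, 3.14 and 3.16 CPM in shControl and at 3.21, 3.19 and 3.80 CPM in shACSL4, with overlap (0.07, 95% interval of the fit -0.41 to 0.55). Exons of TCFL5 (431 to 642 counts per library) lie on the opposite strand over 0.93% of COL9A3, where reads cannot be told apart. COL9A1 was at 1.53 ± 0.143 and 1.05 ± 0.411 CPM (SD, n = 3; -0.53, edgeR adjusted p = 0.25; -0.25 without shACSL4 replicate 1). The intervals of the fit for COL9A2 (-3.27 to -2.20) and COL9A3 did not overlap, while the difference between the 2 changes itself was not tested.

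COL16A1, a fibril-associated collagen found near basement membranes, rose. It was at 3.69, 4.14 and 4.51 CPM in shControl and at 8.14, 8.84 and 9.30 CPM in shACSL4, with no overlap (1.09, SE 0.17, edgeR adjusted p = 7.1e-05). COL6A1, a chain of the beaded filaments of collagen VI, was at 2.02, 2.39 and 2.29 CPM in shControl and at 3.78, 3.93 and 4.49 CPM in shACSL4 (0.87, SE 0.24, edgeR adjusted p = 0.00598). Its partner chains were near 0, with 0 or 1 count of COL6A2 and 1 to 9 counts of COL6A3 in any library. Both COL6A1 and COL6A2 lie on the plus strand of chromosome 21.

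COL28A1, a collagen with von Willebrand factor A domains known from peripheral nerve, fell. It was at 32.5, 25.05 and 28.2 CPM in shControl and at 10.6, 9.69 and 12.1 CPM in shACSL4 (-1.40, SE 0.13, edgeR adjusted p = 2.6e-07). The groups were far apart. No exon of another gene overlaps those of COL28A1 in the annotation.

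Fibrillar collagens were low. COL27A1, a fibrillar collagen of cartilage, was at 18.9, 16.6 and 18.97 CPM in shControl and at 12.1, 14.9 and 16.3 CPM in shACSL4 (-0.33, SE 0.13, edgeR adjusted p = 0.049). That call was lost in 10 of 15 alternatives, among them without shControl replicate 1 or 3 (adjusted p = 0.127 and 0.113) or shACSL4 replicate 1 or 2 (0.23 and 0.0853), with DESeq2 (0.0591) and with library size alone (-0.21, 0.24). COL1A1, the main chain of type I collagen, had 24, 39 and 44 counts in shControl and 12, 6 and 21 in shACSL4 (2.28 ± 0.78 and 0.813 ± 0.495 CPM, SD, n = 3), and fell (-1.49, SE 0.43, edgeR adjusted p = 0.0093). Without shControl replicate 3 or shACSL4 replicate 2 the COL1A1 call was lost (-1.27 and -1.10, adjusted p = 0.0504 and 0.0534). COL1A2, the second chain of type I collagen, and COL3A1 had at most 2 counts in any library. COL5A3 (-0.52) and COL11A2 (0.16) were tested on 4 to 17 counts per library and were not called, with edgeR adjusted p of 0.35 and 0.82. Leaving out shACSL4 replicate 2 moved COL5A3 to -0.32, and leaving out 1 library moved COL11A2 to between -0.11 and 0.55. COL18A1, the multiplexin collagen of basement membranes, had 10 to 28 counts (-0.79, edgeR adjusted p = 0.17; -0.22 without shControl replicate 3, the library with 28), and 16.4% of its exons lie under SLC19A1 on the other strand.

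**Figure D3:**
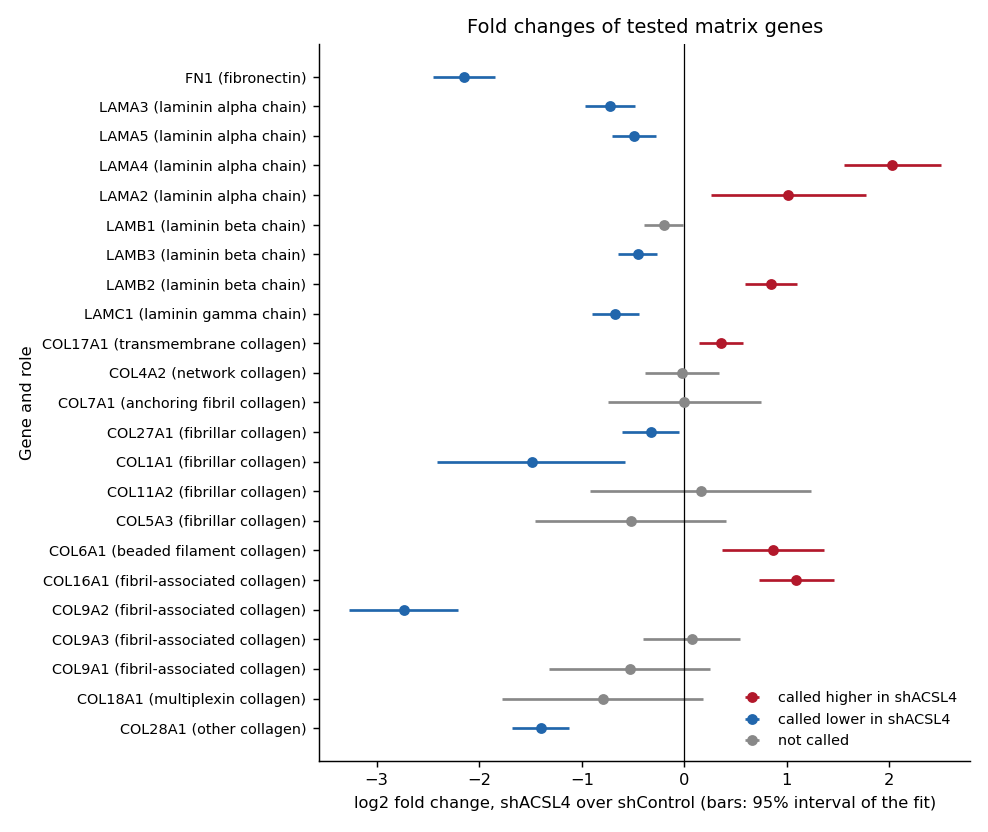
Fold change of tested members (log2, shACSL4 over shControl; 1 of the 24 is not shown) by role, with the 95% interval of the fit as bars and colour for the call. COL9A2 (-2.73) and FN1 (-2.15) lie farthest to the left and LAMA4 (2.03) farthest to the right.

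The other 33 members were under the filter. Of these, 18 had at most 3 counts in every library, 6 had at most 1 read in all libraries together, and COL25A1 had none. Only 6 had at least 10 counts in some library: COL10A1, COL4A3, COL4A4, COL2A1 (4 to 11 counts), COL24A1 (0 to 12 counts) and LAMC3. With no filter beyond 1 count, edgeR tested 32 of the 33 and called 0, and 2 of them, COL10A1 and LAMC3, had an unadjusted p under 0.05. The authors' deposited table gives COL10A1 a log2 fold change of 1.10 with an adjusted p of 0.224.

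Collagen chains are hydroxylated, glycosylated and folded in the endoplasmic reticulum before secretion. Of 31 listed enzymes and helpers of this route, 23 were tested, 12 fell and 3 rose (median log2 fold change -0.38, against 0.01 over all genes tested). The called share was 65.2%, beside 51.7% of protein coding genes. The lysyl hydroxylase PLOD2, which marks collagen for crosslinking, went from 142 ± 4.35 to 43.8 ± 4.11 CPM (-1.70, SE 0.09). The prolyl hydroxylase subunit P4HA1, needed for a stable triple helix, went from 85.3 ± 9.27 to 26.1 ± 1.63 CPM (-1.71, SE 0.10), and PLOD1, another lysyl hydroxylase, from 193 ± 13.8 to 77.5 ± 6.16 CPM (SD, n = 3 throughout; -1.31, SE 0.09). The edgeR adjusted p were 3.2e-10, 1e-09 and 7.7e-09. Lower too were COLGALT1 (-1.11) and P4HB (-0.74). P3H2, a prolyl 3-hydroxylase of basement membrane collagen, rose (1.04). The collagen chaperone SERPINH1 was at 91.9 ± 3.78 and 84.01 ± 4.63 CPM (SD, n = 3; -0.13, edgeR adjusted p = 0.22).

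Among 27 matrix receptors, 21 were tested, 11 fell and 3 rose (median -0.28), a called share of 66.7% beside 51.7% of protein coding genes. With library size alone 11 were called and the median was -0.16. ITGA5 fell most, and ITGA9, a receptor alpha chain for tenascin and other ligands, rose from 11.8 ± 2.27 to 45.3 ± 5.31 CPM (SD, n = 3; 1.94, SE 0.14, edgeR adjusted p = 7.8e-09). SDC4, a heparan sulfate proteoglycan that acts with ITGA5 on fibronectin, fell (-0.65, SE 0.10, 3.6e-05). The collagen receptors ITGA1 (0.78) and ITGA2 (0.79) rose, and DDR1, a collagen receptor kinase, was not called (-0.12, edgeR adjusted p = 0.26). Receptors of collagen and of fibronectin thus included changes in opposite directions.

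Of 25 other matrix partners, 14 were tested, 7 fell and 3 rose (median -0.59), a called share of 71.4% beside 51.7% of protein coding genes. The median was -0.33 without shACSL4 replicate 1 and -0.14 on log2(FPKM + 1). The basement membrane proteoglycans AGRN (-0.68) and HSPG2 (-0.57) and the integrin ligand NPNT (-1.05, SE 0.09, edgeR adjusted p = 1.3e-07) fell, as did tenascin C, TNC (-0.88). THBS1, a secreted glycoprotein that binds fibronectin and collagen, rose from 4.85 ± 0.712 to 50.1 ± 6.78 CPM (SD, n = 3; 3.36, SE 0.14, edgeR adjusted p = 1.7e-11). NID2, which bridges laminin and collagen IV, rose on few counts (0.726 ± 0.252 and 1.79 ± 0.621 CPM, SD, n = 3; 1.29, edgeR adjusted p = 0.013).

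Of 39 matrix proteases and inhibitors, 23 were tested, 10 fell and 2 rose (median -0.22), a called share of 52.2% that lies near the background of 51.7% over protein coding genes. The inhibitor TIMP1 (-0.96, SE 0.09), the cathepsin CTSB (-0.60) and the membrane protease ADAM15 (-0.62) fell, with edgeR adjusted p of 2.2e-07, 2.6e-05 and 0.00016. Calls in this list were 7 without shControl replicate 1, 8 without shControl replicate 3, 8 without shACSL4 replicate 1 and 8 without shACSL4 replicate 3, against 12.

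**Figure D4:**
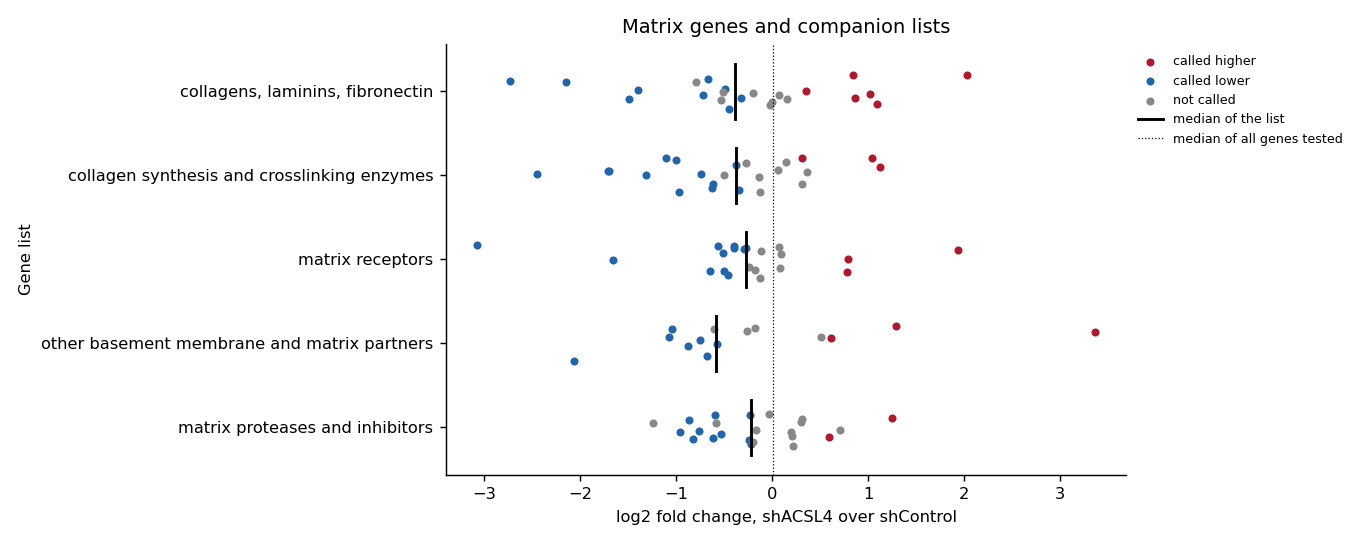
Fold changes (log2, shACSL4 over shControl) of the tested genes of the collagen, laminin and fibronectin set and of the 4 companion lists. Each point is a gene, coloured by its call, with 1 tested member not shown; a black bar is the median of the whole list, and the dotted line is the median of all genes tested (0.01). The medians lie between -0.59 and -0.22.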

How the data were processed

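RNA-seq was analysed in 3 shControl and 3 shACSL4 libraries of T84 cells. Per the labels' protocols, RNA was extracted with Trizol, depleted of ribosomal RNA, fragmented and built into libraries by an NEB method. The submitters' processing notes name CASAVA, HISAT2 and GRCh38 (hg38) and give no version. How reads were counted, and whether by strand, is not given in the sources used here. Per the file headers, the deposited table holds raw read counts per gene, the authors' FPKM per library, their log2 fold changes and their adjusted p-values. The deposited FPKM uses a gene length that equalled the merged exons of GENCODE release 29 for 58724 of 58735 genes. Control columns carry the prefix NC and were taken as shControl, the only other group, matched by number.

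Genes were kept by filterByExpr, scaled by TMM and compared with the quasi-likelihood test of edgeR (4.0.16; R 4.3.3, limma 3.58.1) over all 15694 genes that passed. CPM uses the scaled library sizes. Intervals of the fit are at 95%. The labels name no molecular identifiers, so floors of 3 counts cover counting error only. The fit was tested on simulated data, in which far fewer genes changed than were called here. Alternatives were DESeq2 (1.42.0), limma-voom, scaling by median of ratios or by library size alone, a filter of 1 count or of a mean of 50, limma-trend on log2(FPKM + 1) and log2(FPKM + 0.1), a block for the replicate number, and leaving out each library. Those for the companion lists and the longest-transcript shares were added after seeing the data. Members and lists were chosen with earlier results of these data known. Of the tested members, 1 is counted in totals and is not reported here. Named were the other members that passed the filter, members under it with at least 10 counts in a library, ACSL4, up to 3 called genes per companion list by smallest adjusted p, and defining markers; further genes of the lists, and members under the filter shown as partner chains, were named after their values were seen. CTAGE5 was matched as MIA2.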

Additional observations from a re-analysis of the deposited data

How the results depend on the processing

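Over the 15 alternatives, 13 to 17 members were called against 16, and 12 of the 16 called members were called in every one that tested them. No called member changed sign. The calls of COL17A1, COL27A1, LAMA2 and COL1A1 were each lost in at least 1 setting, and LAMB1 was called in 4. On log2(FPKM + 1), where the pseudocount shrinks folds of low genes, the changes were -1.27 for FN1, -1.12 for COL9A2, 0.57 for LAMA4, 0.42 for COL16A1, 0.31 for COL6A1, 0.17 for LAMA2 and -0.19 for COL27A1 and COL1A1, and the LAMA2, COL27A1 and COL1A1 calls were lost (adjusted p = 0.0945, 0.12 and 0.0518). With log2(FPKM + 0.1), COL1A1 was at -0.87, and the LAMA2 (0.69, adjusted p = 0.0761) and COL27A1 (-0.32, 0.156) calls were lost. With library size alone the median of all genes moved to 0.13 and 65.6% of calls were higher against 50.9%, while 6 members were called higher and 9 lower. Leaving out 1 library gave 6122 to 7251 called genes against 7400, and 7 to 11 called matrix proteases and inhibitors. With the replicate number as a block 16 members and 7414 genes were called. Same-numbered libraries did not deviate together (correlations of deviations 0.0623, -0.00128 and 0.00753), and not every library correlated best with its own number. These correlations cannot show whether the libraries were made in numbered pairs, which the labels do not state. Depth limits the 33 members under the filter, and among called members COL1A1, LAMA2 and COL6A1 rest on at most 71 counts in any library. COL9A2 has 14 to 20 counts in shACSL4. The tested members COL9A3, COL7A1, COL9A1, COL18A1, COL11A2 and COL5A3, which were not called, have at most 60 counts in any library.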
